A study of Mus musculus with 6 samples.

Results

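A 30 Mb stretch of mouse chromosome 1, from base 80000000 to base 110000000 of the build GRCm38, held nearly all cytosines of the genome that were listed for Tet2 knockout (KO) naive B cells and for no wild-type (WT) library. The KO-only cytosines were chosen by their listing and read coverage: a cytosine counted as KO-only if it was listed in all 3 KO libraries, with a coverage of 30 reads or more in each, and in none of the 3 WT libraries. The stretch held 249 such cytosines of 263 in the genome (94.7%), and 12154 further cytosines that were listed in all 6 libraries, called shared here, of 1457048 in the genome. In all, 1799219 cytosines were listed in at least 1 library. The mirrored rule, with WT and KO exchanged, found 0 cytosines in the stretch and 13 elsewhere. Because these values chose them, their number and coverage are given as a description without a test.

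The libraries came from naive B cells of the spleen, 3 from Tet2 KO and 3 from WT mice of the strain C57BL/6, with no treatment, per the labels. The labels give neither the knockout allele nor the age or sex of the mice. They do not say whether the 3 libraries of a genotype were 3 mice, and p-values here speak only of the spread among libraries, which may be technical in part. The design text speaks of germinal centre B cells, whereas the title and the sample labels speak of naive B cells, the name used here. Methylation tables carry no expression, so neither the loss of Tet2 nor the cell type could be checked against marker levels.

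Enhanced reduced representation bisulfite sequencing (ERRBS) reads short fragments that begin and end where the enzyme MspI cuts, at the letters CCGG, and so samples CpG-rich DNA. Bisulfite turns unmethylated cytosine into a base read as T, whereas 5-methylcytosine stays C, as does 5-hydroxymethylcytosine. TET2 oxidises 5-methylcytosine to 5-hydroxymethylcytosine, a step of active demethylation, and it is a known tumour suppressor of blood cells. Most mammalian CpGs are methylated, while CpG-dense gene starts are mostly free of methylation. A fragment enters the library only if both of its ends are cut and its length passes the size selection.

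Of the 249 KO-only cytosines, 14 lay in the 300-base promoter windows of 4 genes, from 250 bases before to 50 bases after the start site. These windows are shown because they place the KO-only CpGs among the CpGs that both genotypes shared. The sequences are from RefSeq, GRCm38.p6, written along the gene's strand, with the KO-only CpGs in capitals.
Glrp1, chr1:88510017-88510316, minus strand: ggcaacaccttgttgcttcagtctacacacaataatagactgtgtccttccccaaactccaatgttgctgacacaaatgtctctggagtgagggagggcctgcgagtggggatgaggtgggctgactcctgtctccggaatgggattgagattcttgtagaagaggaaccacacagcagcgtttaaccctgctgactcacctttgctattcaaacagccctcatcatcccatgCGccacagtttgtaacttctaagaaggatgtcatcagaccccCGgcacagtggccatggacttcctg
Arl4c, chr1:88702142-88702441, minus strand: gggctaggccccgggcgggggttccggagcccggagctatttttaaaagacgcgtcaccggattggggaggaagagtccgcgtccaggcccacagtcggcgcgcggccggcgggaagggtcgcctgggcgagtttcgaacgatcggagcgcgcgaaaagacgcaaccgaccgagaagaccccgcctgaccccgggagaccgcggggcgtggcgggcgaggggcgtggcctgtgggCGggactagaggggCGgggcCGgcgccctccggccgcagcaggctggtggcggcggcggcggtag
Scly, chr1:91298088-91298387, plus strand: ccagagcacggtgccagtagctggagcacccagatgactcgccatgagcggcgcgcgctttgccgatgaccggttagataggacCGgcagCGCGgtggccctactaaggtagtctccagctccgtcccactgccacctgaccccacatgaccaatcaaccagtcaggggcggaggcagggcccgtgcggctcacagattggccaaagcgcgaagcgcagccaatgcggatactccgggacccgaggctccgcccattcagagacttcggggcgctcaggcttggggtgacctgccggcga
Traf3ip1, chr1:91494418-91494717, plus strand: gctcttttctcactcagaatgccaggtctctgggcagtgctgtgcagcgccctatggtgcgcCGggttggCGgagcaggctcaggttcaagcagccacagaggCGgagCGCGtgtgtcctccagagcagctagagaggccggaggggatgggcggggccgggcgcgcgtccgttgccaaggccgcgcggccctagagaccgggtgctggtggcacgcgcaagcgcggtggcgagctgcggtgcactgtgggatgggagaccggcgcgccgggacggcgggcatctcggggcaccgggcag

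The KO-only CpGs sat close together in each window, beside many shared ones. Arl4c, which encodes a small GTPase of the ARF-like family, had 4 KO-only and 53 shared cytosines in its window. Scly, the gene of selenocysteine lyase, had 3 KO-only and 24 shared cytosines, and Traf3ip1, whose product binds TRAF3 and takes part in the building of cilia, had 5 and 34. The Glrp1 window had 2 of each. In each of the 4 windows the KO-only cytosine with the lowest coordinate lay inside a CCGG, the MspI site, which reads the same on both strands. Of the 14 KO-only cytosines in the windows 4 lay inside a CCGG. Among shared cytosines in the promoter windows of the stretch 305 of 1655 did (18.4%). ERRBS fragments begin at such sites and the 14 sat close together in 4 windows, so these counts are a description only. CCGG occurred in 58.1% of the 198 promoter windows of protein-coding genes in the stretch and in 52.8% of all 32817 promoter windows of the table. All 1890 listed cytosines in these 198 windows had a C on their listed strand in this sequence. The reads were aligned to the same build, so this checks coordinates and strands only, not the DNA of the mice. The other 235 KO-only cytosines lay outside the windows, and their sequences were not analysed here.

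The 3 unmethylated windows were unmethylated in both genotypes wherever both could be read. The KO-only cytosines of the Arl4c window were covered by a mean of 61.8, 52.8 and 88.3 reads in KO replicates 1, 2 and 3 and were methylated at 0%, 0.455% and 0%. The shared cytosines of that window stood between 0% and 0.308% in all 6 libraries. The Scly window had KO-only coverage of 52.3, 52.0 and 68.3 reads and 0% methylation in each KO library. The Traf3ip1 window had KO-only coverage of 60.2, 145.8 and 112.4 reads and methylation of 0.333%, 1.24% and 0%. In the Glrp1 window the KO-only cytosines were partly methylated, at 21.3%, 14.3% and 14.9%, with 93, 116 and 45 reads. The 2 shared cytosines of the Glrp1 window stood at 42.3%, 42.0% and 27.9% in KO and at 68.5%, 84.7% and 89.7% in WT. The KO values lay below the WT values without overlap, but the window itself was not tested. Neither cytosine was called when single shared cytosines were tested (quasi-binomial adjusted p = 0.261 for base 88510181).

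The libraries were of like depth. They listed from 1551481 to 1626375 cytosines each at median coverages of 92 to 110 reads, and no library listed a cytosine with fewer than 10 reads. A cytosine that is missing from a WT table was therefore either not read or read fewer than 10 times there, and these cannot be told apart. The shared cytosines of the stretch took 0.823% ± 0.00235 of all reads at shared cytosines in KO and 0.826% ± 0.00485 in WT (SD, n = 3 each, two-sided exact permutation p = 0.3, where 0.1 is the smallest p that 3 against 3 allows). Their mean methylation was 33.4%, 33.3% and 33.1% in KO and 32.8%, 33.0% and 33.0% in WT. Weighted by reads, with no value for the rest of the genome to set beside it, the difference was 5.74 points. With each cytosine weighted equally it was 0.347 points (exact permutation p = 0.1), close in size to the 0.344 points at shared cytosines elsewhere (exact permutation p = 0.1). The share of reads with a base other than C or T at these cytosines was 0.0157% ± 0.000149 in KO and 0.0152% ± 0.00189 in WT (SD, n = 3, exact permutation p = 0.8), and its sign turned without WT replicate 1 (-0.000515 points).

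The KO-only cytosines were concentrated in the stretch but did not fill it evenly. Of the cytosines covered by 30 reads or more in all 3 KO libraries, the stretch had 11061, of which 249 (2.25%) were listed in no WT library, 3 in 1, 89 in 2 and 10720 in all 3. Over the whole genome the rule chose 0.0204% of 1290784 such cytosines, and outside the stretch 14 of 1279723. The mirrored rule chose 0.00103% of 1263511 cytosines over the whole genome. The 14 KO-only cytosines outside included 7 elsewhere on chromosome 1, between bases 34895271 and 34928839, and 4 on chromosome 17. Of the 285 bins of 10 Mb in the genome, 5 outside the stretch held any, with at most 7 in a bin. The count elsewhere rested on all 6 libraries. Without WT replicate 3 the rule gave 251 in the stretch and 185 elsewhere, and without WT replicates 1 or 2 it gave 250 and 20 or 249 and 33. Without KO replicates 1, 2 or 3 it gave 276 and 146, 255 and 34, or 289 and 65. The mirrored rule then gave 0 to 1 in the stretch and 17 to 124 elsewhere.

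Within the stretch the KO-only cytosines reached from base 80597584 to base 105881834, over 25.3 Mb. The 3 bins of 10 Mb held 91, 129 and 29 of them in order, beside 5800, 4758 and 1596 shared cytosines. By bins of 1 Mb, 21 of 30 held at least 1, with the highest count of 38 in the bin that begins at 91 Mb. The bins at 89 and 93 Mb held 30 each, whereas the bin at 92 Mb between them held 0, although it listed 913 shared cytosines. No KO-only cytosine lay in the last 4 Mb.

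**Figure D1:**
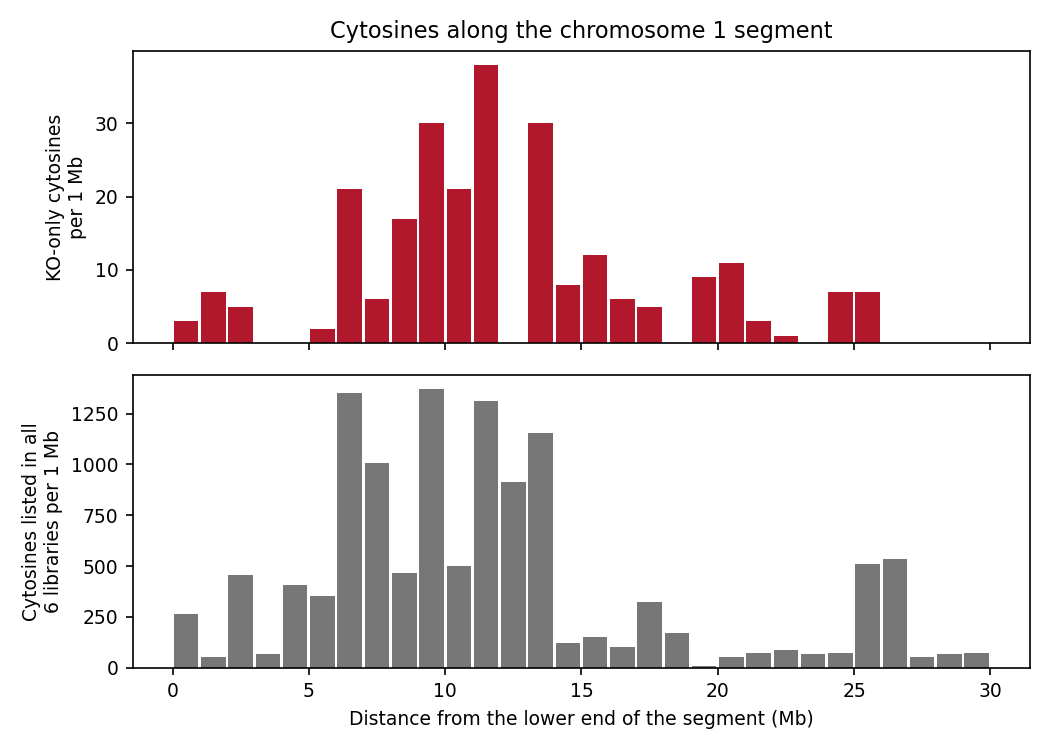
KO-only cytosines (top, red) and cytosines listed in all 6 libraries (bottom, grey) per 1 Mb, by distance in Mb from the lower end of the 30 Mb stretch. The KO-only count peaks at 38 in the bin from 11 to 12 Mb and is 0 in the next bin, where many shared cytosines were listed.

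Coverage at the KO-only cytosines was well below that of shared cytosines in the same libraries. The median KO-only coverage was 57 reads in KO replicate 1 (range 30 to 193), 60 in replicate 2 (30 to 176) and 61 in replicate 3 (31 to 134). Shared cytosines of the stretch held to the same KO minimum of 30 reads had medians of 110, 127 and 130 reads in the KO libraries and of 130, 139 and 128 in the WT libraries. The KO-only medians were thus 51.8%, 47.2% and 46.9% of the shared medians. With the minimum lowered to the 10 reads of the tables, the KO-only medians of 46, 49 and 46 reads were 45.1%, 42.6% and 39.5% of the shared medians of 102, 115 and 116.5.

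The count depends on the threshold. The stretch was chosen for its KO-only cytosines and each higher minimum keeps a part of the same set. The contrast with the mirrored rule at each minimum is therefore a description only. At minimums of 10, 20, 30 and 50 reads the stretch held 417, 328, 249 and 105 KO-only cytosines, and 7, 1, 0 and 0 by the mirrored rule. Elsewhere in the genome the rule gave 1344, 65, 14 and 8, and the mirrored rule 636, 46, 13 and 3. Just inside the threshold, 40 KO-only cytosines had a lowest KO coverage of 30 to 34 reads and a mean methylation of 78.2%. Just outside it, 45 had 25 to 29 reads and a mean methylation of 85.6%.

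**Figure D2:**
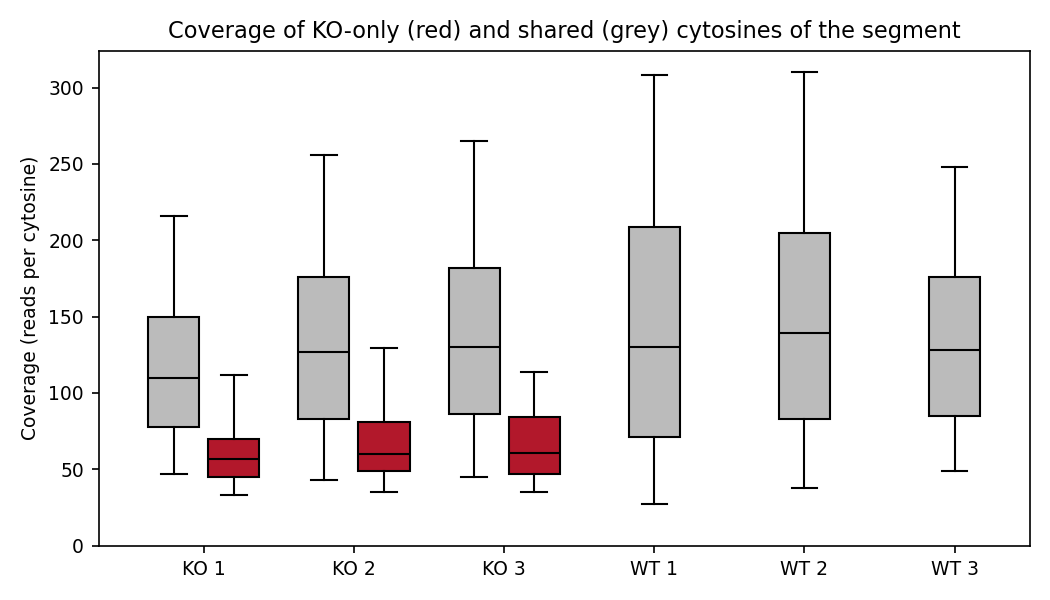
Coverage in reads per cytosine in each library, for the 249 KO-only cytosines (red, KO libraries only) and for shared cytosines of the stretch with 30 reads or more in each KO library (grey). Boxes span the quartiles with the median, and whiskers run from the 5th to the 95th percentile. The KO-only medians of 57, 60 and 61 reads lie below the shared medians of 110 to 139.

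The KO-only cytosines came in short runs, often read from 1 strand. Runs and strands were not counted for shared cytosines, so neither is shown to be particular to the KO-only ones. By strand, 122 lay on the forward and 127 on the reverse strand, in 235 CpGs. In 14 CpGs both strands were KO-only, and there the strands differed by a median of 1.47 points of methylation, with 13 of 14 pairs within 10 points. For 179 KO-only cytosines the cytosine on the opposite strand of the CpG was not listed in any library, for 26 it was shared by all 6, for 10 it was listed in part of the libraries, and for 6 it was KO-only below 30 reads. The shared opposite-strand cytosines had a median coverage of 133.5 reads in KO and 158.5 in WT, against 83.8 reads at their KO-only partners. In KO the methylation of these partners differed by a median of 0.954 points between strands.

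Joined at gaps of up to 200 bp, the KO-only cytosines formed 83 clusters, of which 58 held 2 or more and 31 of these 58 lay on 1 strand. The clusters of 2 or more had a median length of 49 bp, and the longest spanned 257 bp. By mean KO methylation, 13 clusters lay below 10%, 56 at 90% or above and 14 between, and 39 of the 83 lay inside genes. Joining at 100 or 500 bp gave 97 or 81 clusters.

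Methylation at the KO-only cytosines was alike in the 3 KO libraries, with means of 63.7%, 63.9% and 63.4%. The SD over the 3 libraries had a median of 3.02 points per cytosine, and for 168 of 249 all 3 values lay within 10 points. A larger share was highly methylated than among shared cytosines: 124 (49.8%) stood at 90% or above, against 25.6% of shared cytosines in the KO libraries, and 72 (28.9%) stood below 10%, against 60.8%. A further 37 (14.9%, against 6.89%) stood between 70% and 90%, 12 (4.82%, against 3.70%) between 30% and 70%, and 4 (1.61%, against 2.95%) between 10% and 30%.

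**Figure D3:**
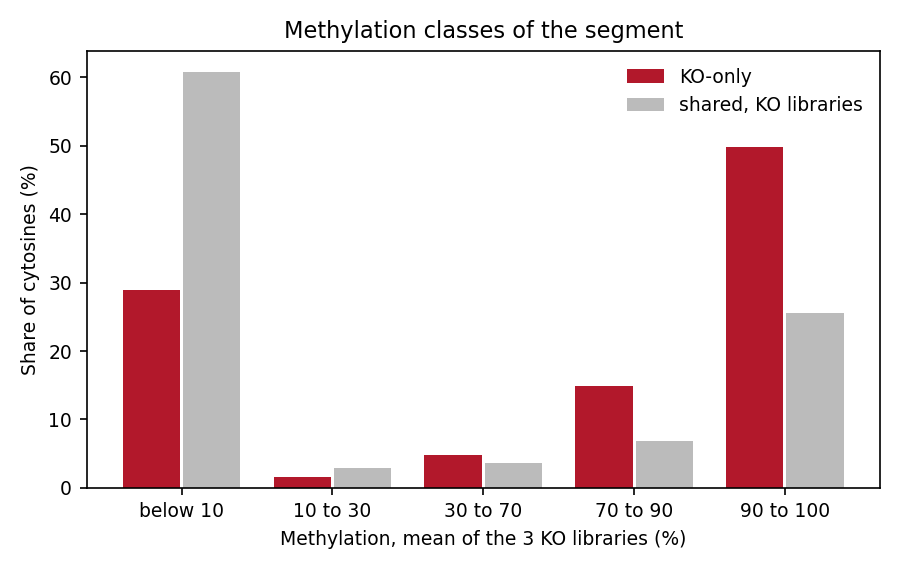
Share of cytosines (%) in 5 classes of methylation, by the mean of the 3 KO libraries, for the 249 KO-only cytosines (red) and the 12154 shared cytosines of the stretch (grey). The class of 90% and above holds 49.8% of KO-only and 25.6% of shared cytosines.

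Distance to a gene start separated the methylated from the unmethylated ones. Of the 249, 62 (24.9%) lay within 1 kb of a start site, against 47.1% of shared cytosines, and 61 of these 62 (98.4%) stood below 10%. The share below 10% among shared cytosines within 1 kb was 95.9%. Of the 187 farther away, 161 (86.1%) stood at 70% or above, and 11 stood below 10%. Among shared cytosines farther away the share at 70% or above was 60.2%. Genes held 131 KO-only cytosines (52.6%, against 70.6% of shared ones), and the 118 outside lay a median of 122 kb from the nearest protein-coding gene.

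Where shared CpGs lay close by, most KO-only cytosines had a methylation near theirs. For 129 of 249 a shared cytosine of another CpG lay within 100 bp, and the other 120 had none. The KO-only value differed from the KO mean of those neighbours by a median of 1.70 points, and 107 of 129 lay within 10 points. Of these 129, 68 stood below 10%, of which 67 lay within 10 points. Of the 61 at 10% or more, 40 lay within 10 points and 21 did not, with a median difference of 7.26 points. The largest difference, 54.5 points, was at B3gnt7, where a KO-only cytosine stood at 87.7% and its neighbours at 33.2%. At the same neighbours KO and WT differed by a median of 0.425 points, over all 129 sites, of which 68 stood below 10%. The neighbours of single sites differed more. Those of base 88510040 in Glrp1 stood at 24.8% in KO and 69.7% in WT, and those of base 93845676 in D2hgdh at 91.4% and 68.5%. The neighbours had a median coverage of 114 reads in KO and 143.5 in WT, against 66.3 reads at the KO-only cytosines beside them. That the WT libraries read DNA within 100 bp of these 129 sites follows from the choice of shared neighbours. It says nothing of the other 120 sites.

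**Figure D4:**
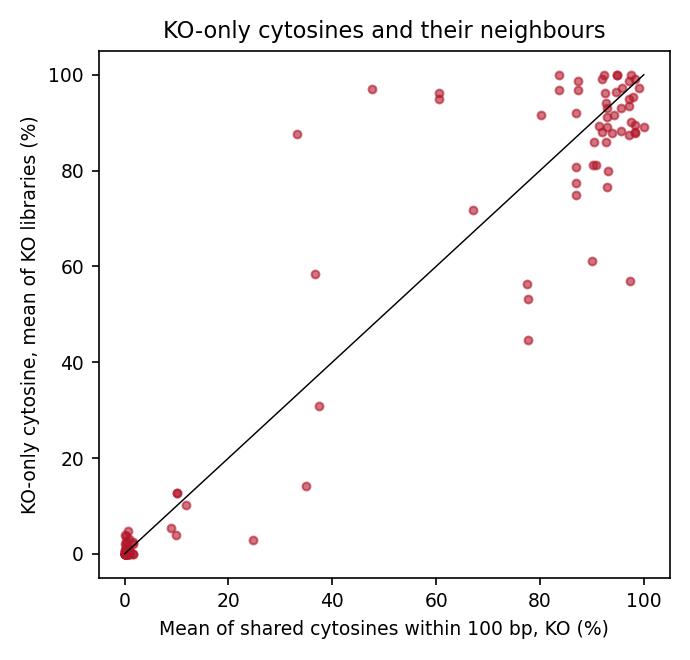
Methylation (%) of each of 129 KO-only cytosines, as the mean of the 3 KO libraries, against the KO mean of shared cytosines of other CpGs within 100 bp. The line marks equal values, and 107 of the 129 points lie within 10 points of it.

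The KO-only cytosines fell in or nearest to 40 of the 188 protein-coding genes of the stretch, and 23 genes held at least 1 inside. The genes with 7 or more were 13 in number and accounted for 163 of the 249. Lrrfip1, which encodes a protein that binds nucleic acids and takes part in innate immune sensing, had 30, all inside the gene in 8 clusters between bases 90998930 and 91052782. Cntnap5b, of a family of neuronal adhesion proteins, had 23, of which 5 lay inside the gene. Agap1, a regulator of ARF GTPases in endosomal traffic, had 21, of which 20 lay inside. These counts are not scaled to the cytosines read in each gene. Lrrfip1 held 200 shared cytosines, Cntnap5b 9 and Agap1 651. The stretch as a whole had 20.5 KO-only cytosines per 1000 shared ones. Arl4c, Atg4b and Sh3bp4 had 12 each, Bok and St8sia4 had 9 each, and B3gnt7, Cdh20, Cops8, Irs1 and Tex44 had 7 each.

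At Lrrfip1 the KO-only cytosines had a mean methylation of 47.9%, 47.3% and 46.0% in KO replicates 1, 2 and 3. This is a mean over 2 unmethylated clusters and 6 partly or highly methylated ones. The cluster of 11 cytosines at chr1:90998930-90999186, 203 bp from a start site, was methylated at 0.931%, 1.30% and 0%, with 81.9, 90.7 and 53.7 reads. It interleaved with 13 shared cytosines. The cluster of 7 at chr1:91017332-91017495, about 18.6 kb from the nearest start site, was methylated at 77.1%, 73.0% and 80.02%, with 61, 40 and 72.3 reads. The 5 at chr1:91017752-91017795, all on the reverse strand, stood at 63.7%, 61.3% and 46.5%.

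The largest cluster held 12 KO-only cytosines, 6 on each strand, within Atg4b, the gene of a protease that processes LC3 in autophagy. It lay at chr1:93755120-93755168, 215 bp from a start site, with 57.3, 51.8 and 45.2 reads, and was methylated at 0% in each KO library. Bok, a pro-apoptotic member of the BCL2 family, had a cluster of 9 at chr1:93686252-93686394, with the highest coverage of the 5 largest clusters, at 157, 129.1 and 100.2 reads. Its methylation was 2.0%, 1.40% and 0.354%. The 7 cytosines nearest to Tex44, a gene expressed in testis, lay 14.4 kb from it at chr1:86442476-86442513, all on the forward strand. They were methylated at 1.66%, 0% and 0%, and their coverage of 69.4, 39.0 and 114.7 reads had a wider range over libraries, relative to its mean, than at the other 4 of the 5 largest clusters. Over all 83 clusters the highest KO library had a median of 1.52 times the coverage of the lowest.

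Most clusters away from gene starts were highly methylated. Low exceptions were those at Tex44 and Ptma, 1 cluster of Agap1 and 1 cytosine near B3gnt7. Intermediate ones were 1 cluster near Cops8 (mean 46.0%), 1 in Lrrfip1 (57.2%) and 1 cytosine near Ackr3 (61.1%). The 23 cytosines assigned to Cntnap5b stood at 94.3%, 95.6% and 92.1%, with single cytosines between 83.6% and 100%, and lay up to 1766 kb from the gene. The 9 nearest to St8sia4, the gene of a polysialyltransferase, lay 189 to 278 kb away and stood at 94.2%, 97.1% and 96.4%. Irs1, the adaptor of the insulin receptor, had 7 at a distance of 59.2 kb or more, at 98.1%, 95.04% and 98.0%. Cdh20, a cadherin gene, had 7 at 89.9%, 94.6% and 91.7%, and Cops8, a subunit of the COP9 signalosome, had 7 at 83.7%, 76.0% and 83.3%. Sh3bp4, which acts in endocytosis, had 12 at 92.7%, 89.4% and 86.9%.

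Mixed levels were seen at 3 further genes. The 21 KO-only cytosines of Agap1 had a mean of 71.3%, 73.2% and 71.8%. They ranged from 4.03% to 100% and included 5 at chr1:89581626-89581674 with a mean of 9.03%, 10.02% and 7.92%. The 12 of Arl4c averaged 63.9%, 63.0% and 61.1% and joined the unmethylated promoter window to sites up to 135 kb away. B3gnt7, the gene of an N-acetylglucosaminyltransferase, had 7 at 6.14 to 6.55 kb from the gene, of which 6 in 1 cluster averaged 93.6%, 94.9% and 95.6%. The other, at base 86313850, stood at 4.44%, 1.82% and 36.2%, low in 2 KO libraries and higher in the third.

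A list of 28 genes of the stretch was drawn up for immune and lymphocyte genes. It also held genes of broader roles, among them Arl4c, Traf3ip1 and Bok, so its shares are not shares of immune genes alone. KO-only cytosines lay inside 6 of the 28 genes and within 10 kb of 7 (25%), beside 31 of all 188 genes (16.5%). The 7 were Dock10, Gpr55, Dgkd, Lrrfip1, Arl4c, Bok and Traf3ip1. Dock10 held 3 KO-only cytosines at 95.2%, 96.6% and 100%. The 5 of Dgkd, a diacylglycerol kinase that lowers diacylglycerol signals, lay on the reverse strand 452 bp from a start site and stood at 0% in each KO library, with 49.4, 127.2 and 74.8 reads. Gpr55, a lipid-sensing receptor, held 1, at 98.5%, 100% and 92.3%.

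The other genes of the list held no KO-only cytosine within 10 kb. They included Bcl2, the survival gene of B cells, 656 kb from the nearest one, Inpp5d, the gene of the phosphatase SHIP, at 123 kb, and Pdcd1, the gene of the receptor PD-1, at 193 kb. Of 12 nervous system and channel genes in the stretch 1, Cdh20, had a KO-only cytosine within 10 kb, and of 5 matrix and membrane traffic genes 1, Agap1, did. None of the 9 Ugt1a genes, which encode glucuronosyltransferases, and none of the 12 Serpinb genes, which encode protease inhibitors, had one. Little was read there: of the Serpinb genes only Serpinb5 and Serpinb13 held shared cytosines, 4 and 2. The Ugt1a genes overlap 1 another, and the longest, Ugt1a10, held 41 shared cytosines.

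Methylation at shared cytosines was not used by the rule and was tested with a quasi-binomial model over all 1457048 shared cytosines, with Benjamini-Hochberg adjustment. Calls required an adjusted p under 0.05 together with a pooled difference of 10 points or more. In the stretch 5 of 12154 shared cytosines (0.0411%) were called higher in KO, against a percent called of 0.000343 in the genome. With all 6 libraries the genome had no other call. No shared cytosine was called lower by this test, in the stretch or elsewhere. At an unadjusted p under 0.05, 498 (4.10%, against 3.99% of all) were higher and 306 (2.52%, against 2.38% of all) were lower in KO. With limma on log2((C + 2)/(T + 2)), 0 were called in either direction, with 651 higher (5.36%, against 4.49% of all) and 219 lower (1.80%, against 1.61% of all) at that unadjusted threshold.

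The 5 called cytosines stood near 0% in WT and between 42.4% and 68.1% in KO. A T in the DNA itself is read like an unmethylated cytosine, so a percent at a single cytosine does not tell these apart. Whether the DNA sequence of the stretch differed between the genotypes was not tested, and this limit holds for all values at single cytosines here. The first, at base 85862281 on the forward strand, lay 10.7 kb from Cab39, a scaffold of the kinase LKB1. It was methylated at 59.0%, 56.8% and 48.4% in KO and at 0%, 0% and 3.53% in WT, a pooled difference of 53.2 points (quasi-binomial adjusted p = 0.0405). Shared cytosines of other CpGs within 100 bp stood at 95.5% in KO and 95.7% in WT.

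The second, at base 88668680 on the forward strand and 29.5 kb from Arl4c, stood at 48.3%, 44.0% and 55.3% in KO and at 0% in each WT library (49.7 points, adjusted p = 0.0405). The third lay inside Lrrfip1, at base 91032631 on the forward strand and 29 bp from a KO-only cytosine. It stood at 65.5%, 60.9% and 58.3% in KO, with 55, 92 and 96 reads, and at 0% in each WT library, with 34, 41 and 49 reads (60.9 points, adjusted p = 0.0405). Its partner on the reverse strand stood at 43.1%, 65.8% and 55.0% in KO and at 0% in each WT library, with an adjusted p of 0.0555.

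The fourth, at base 94248419 on the reverse strand, lay 196 kb from Pdcd1, its nearest gene. It stood at 46.0%, 42.4% and 54.8% in KO and at 0% in each WT library, with 104 to 139 reads in every library (47.2 points, adjusted p = 0.0114). The fifth, at base 98889701 on the reverse strand and 373 kb from Slco6d1, a gene of an organic anion transporter family, stood at 68.1%, 65.4% and 46.9% in KO and at 0% in each WT library (59.0 points, adjusted p = 0.0405). At all 5 the KO and WT values did not overlap, and the neighbouring shared cytosines had WT means between 81.0% and 96.2%. The calls are sensitive to the libraries used: without any 1 WT library 0 were called (adjusted p from 0.355 to 0.942), and without KO replicate 1, 2 or 3 the stretch had 9, 11 or 12 of 25, 21 or 17 calls in the genome. Over these fits the 5 pooled differences lay between 44.0 and 66.9 points.

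The raw percentages were also counted without a test. The 5 called cytosines are among those counted at each gap below, so the count is not separate from the calls. The following count was chosen after the values were seen. In the stretch 20 shared cytosines had a lowest KO value at least 20 points above the highest WT value, which is 16.5 per 10000 shared cytosines, against 220 or 1.52 per 10000 elsewhere (0.0165% of all shared cytosines). With a gap of 30 points the counts were 13 in the stretch and 20 elsewhere (10.7 and 0.138 per 10000, 0.00226% of all). With a gap of 40 points they were 8 and 2 (6.58 and 0.0138 per 10000, 0.000686% of all). In the opposite direction the stretch had 1 cytosine with a gap of 20 points, and the rest of the genome 22.

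The gap set the levels of the 20 cytosines in part, since every KO value had to reach 20% or more. It did not set the levels of their neighbours, except at bases 91068284 and 91068286 in Lrrfip1, where each counted among the other's neighbours. The KO mean of 19 lay between 30% and 70%, with a median over the 20 of 45.7%. The WT mean of 16 was below 1%, and 11 stood at 0% in all 3 WT libraries. Their surroundings were methylated in both genotypes: for 17 the shared cytosines within 100 bp had a WT mean of 70% or more, with medians over the 20 of 95.2% in WT and 94.3% in KO. They lay between bases 85862281 and 98889701, 10 of them inside genes, at a median of 18.3 kb from the nearest KO-only cytosine, and 4 within 1 kb of one. Of the 20, 5 lay inside Lrrfip1.

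The levels at D2hgdh and Glrp1 departed from this. D2hgdh, the gene of the enzyme that removes D-2-hydroxyglutarate, had a cytosine at base 93845616, 60 bp from a KO-only one, at 88.6%, 78.3% and 76.7% in KO and at 14.3%, 22.7% and 9.09% in WT (quasi-binomial adjusted p = 0.448). The 1 cytosine with a gap in the opposite direction lay in Glrp1, at base 88510181 on the reverse strand, inside the promoter window printed above and 99 bp from a KO-only cytosine. It stood at 58.2%, 52.9% and 38.9% in KO and at 90.6%, 90.8% and 95.2% in WT, a difference of -40.7 points that was not called (adjusted p = 0.261).

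**Figure D5:**
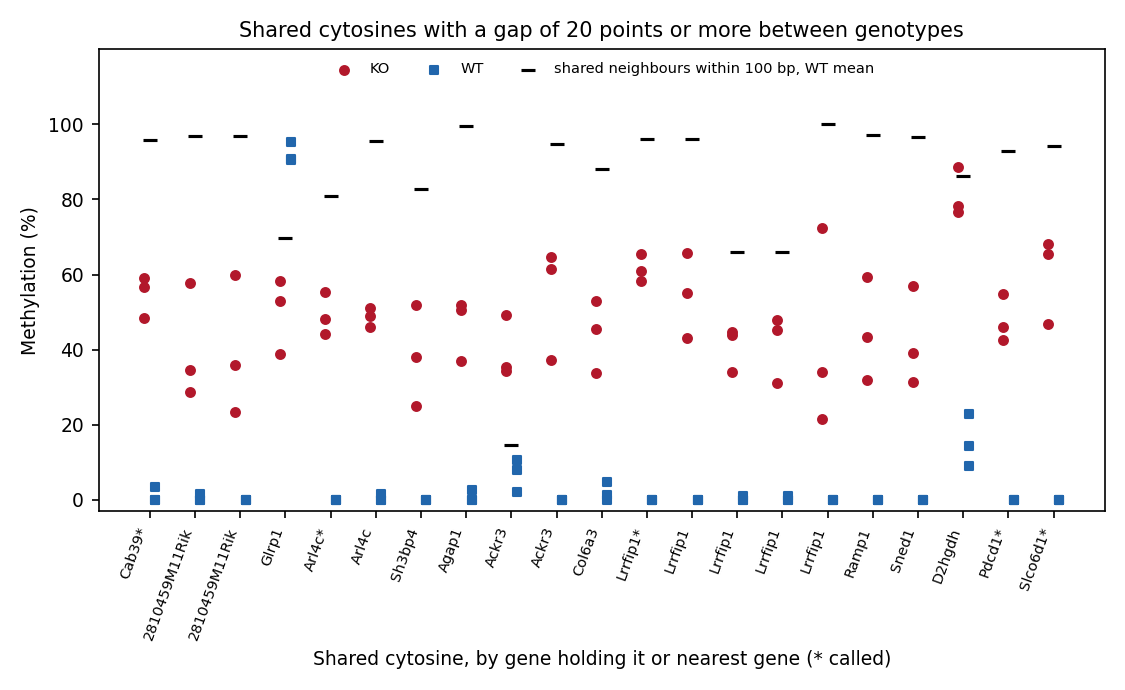
Methylation (%) in each KO (red circles) and WT (blue squares) library at the 21 shared cytosines of the stretch with a gap of 20 points or more between genotypes, in order along the chromosome and labelled by the gene that holds each or is nearest. Black dashes give the WT mean of shared cytosines within 100 bp, and asterisks mark the 5 called cytosines. In 20 of 21 the KO values lie above the WT values, and most WT values lie at or near 0% below methylated neighbours.

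Tiles of 1 kb, which pool the reads of 3 or more shared cytosines, gave a share of calls near that of the genome. Of 911 tiles in the stretch 1 (0.110%) was called higher in KO by the quasi-binomial test, against a percent called of 0.112 over 108943 tiles, and 0 were called lower. At an unadjusted p under 0.05, 69 were higher (7.57%, against 5.73% of all tiles) and 18 lower (1.98%, against 1.46%). With limma 0 were called, 59 were higher at that threshold (6.48%, against 5.06% of all) and 18 lower (1.98%, against 1.51%). The called tile, chr1:90202001-90203000, lay 1.48 kb from Ackr3, an atypical chemokine receptor that scavenges CXCL12, and held no KO-only cytosine. Over its 20 cytosines methylation was 28.6%, 23.3% and 25.3% in KO and 15.3%, 16.5% and 14.8% in WT, a difference of 10.3 points (adjusted p = 0.00822). Without KO replicate 1 the difference was 8.75 points and without WT replicate 3 it was 9.87 points, both under the minimum of 10.

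Coverage of the same tiles was compared with edgeR's quasi-likelihood test. In the stretch 7 tiles (0.768%) were called in either direction, against a percent called of 0.427. Of these, 2 tiles (0.220%) were called lower in KO, against a percent called of 0.00551, so that 2 of the 6 lower tiles of the genome lay there. A further 5 (0.549%) were called higher, against a percent called of 0.421. The lower tile in Lrrfip1, chr1:91052001-91053000, had a mean coverage per cytosine of 102.6, 142.3 and 128.8 reads in KO and 263.9, 271.1 and 230.8 in WT (log2 difference -1.07, edgeR adjusted p = 0.012). It held 1 KO-only cytosine, and its 20 shared cytosines were unmethylated, at means of 0.348% in KO and 0.651% in WT. The lower tile in Dock10, chr1:80758001-80759000, had 58.9, 63.8 and 70.8 reads in KO and 135.3, 111.9 and 118.7 in WT (log2 difference -0.96, adjusted p = 0.0188) over 55 unmethylated cytosines. KO and WT did not overlap in either tile.

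The 5 tiles called higher held between 3 and 6 cytosines each and were methylated. The tile in D2hgdh, chr1:93845001-93846000, holds the cytosine described above and 1 KO-only cytosine. It had 70.3, 82.5 and 89.3 reads in KO and 14, 20.8 and 22.3 in WT (log2 difference 2.06, edgeR adjusted p = 0.0188). The others lay in Sp140, a nuclear body gene of immune cells, and near Sh3bp4, Nyap2 and Serpinb10, with log2 differences from 1.33 to 1.35. The 33 tested tiles that held a KO-only cytosine had a median log2 coverage difference of -0.11, against 0.07 in the other tiles of the stretch. These calls depend on the libraries: 0 tiles were called without KO replicate 1, 1 without KO replicate 2, 24 without KO replicate 3, 1 without WT replicate 1, 12 without WT replicate 2 and 40 without WT replicate 3. DESeq2 called 16 higher and 3 lower. With total reads in place of edgeR's TMM scaling 0 were called (adjusted p = 0.124 for each of the 7), and the log2 differences of the 2 lower tiles were -0.89 and -0.78. That scaling moved the median log2 difference of all tiles from 0.02 to 0.19, and all log2 differences of coverage are relative to the scaling used.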

How the data were processed

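ERRBS of 6 libraries, 3 KO and 3 WT, was analysed from the deposited tables, 1 per library, with 1 line per CpG cytosine and strand. Reads were aligned with Bismark to GRCm38, per the submitters' processing notes; its version and the handling of duplicates were not given in the sources used here. The deposited coverage counts the reads at each cytosine (10 or more) and is not normalized. The deposited methylation is the percent of reads with C and with T, per the file headers. Multiplying percent by coverage gave the C and T counts, which were whole for 100% of values within 0.00051 percentage points. PCR reads without molecular identifiers are not independent, so depth gives counting error only. Coverage summed over cytosines was 168455105 to 207065050 per library.

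The quasi-binomial F test (Python 3.11.15, numpy 2.4.6, scipy 1.17.1) compared KO with WT, with overdispersion moderated across all features as in limma and held at 1 or above. Coverage was tested with edgeR 4.0.16, and alternatives used limma 3.58.1 and DESeq2 1.42.0 in R 4.3.3. These models ran on all features of the genome. The quasi-binomial and edgeR fits of 1 kb tiles were tested on simulated tiles, whereas the fit of single cytosines was not. Single library values were compared by exact permutation. Genes were 21896 protein-coding genes of RefSeq GRCm38.p6; a cytosine went to the gene holding it, else to the nearest gene end. Exon and intron context was not analysed here. The KO-only cytosines, the gene lists and the rule for named genes were chosen with earlier results of these data known. Named were the 10 genes with most KO-only cytosines (13 with ties), the 5 largest clusters, called cytosines and tiles, and listed immune genes within 10 kb; other names were chosen after their values were seen. Alternatives were other coverage limits, models and scalings, a replicate block and each library left out.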

Additional observations from a re-analysis of the deposited data

How the results depend on the processing

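The count of KO-only cytosines was 417 at a minimum of 10 reads and 105 at 50, and 249 to 289 with 1 library left out; the mirrored count was 7 at 10 reads and 0 to 1 with 1 library left out (1 without WT replicate 3). Called cytosines, 5 in the stretch, numbered 1 with at least 20 reads in all 6 libraries, 0 without moderation of the overdispersion, 0 with limma and 0 to 12 with 1 library left out. The called tile fell to 0 without moderation, with limma and with equal weights per cytosine, and to 0 to 1 with 1 library left out. Coverage calls, 7 tiles, were 19 with DESeq2, 0 with total reads as library size and 0 to 40 with 1 library left out. The difference in other-base reads turned to -0.000988 points under an upper limit on coverage, and ranged from -0.000515 to 0.00134 with 1 library left out. Same-numbered KO and WT libraries did not deviate together (r = 0.0115, -0.00562 and 0.0095 over cytosines), so the numbers were not taken as pairs; with the replicate block there were 0 called cytosines, 0 called tiles and 39 coverage tiles. The difference in mean methylation was 0.293 to 0.429 points with 1 library left out and 5.74 points when weighted by reads, and that in the share of reads was -0.00665 to -0.00193 points with 1 library left out; with 3 libraries against 3 no p could fall below 0.1, so their p-values say nothing of stability. The causes were not tested. The tables list no cytosine under 10 reads, which limits what can be said of WT coverage at KO-only sites.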
